A study of Saccharomyces cerevisiae with 6 samples.

Results

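The 8 genes described here take up ammonium and move its nitrogen into and out of glutamate and glutamine in the yeast Saccharomyces cerevisiae. They are the ammonium permeases MEP1 (YGR121C), MEP2 (YNL142W) and MEP3 (YPR138C), the glutamine synthetase GLN1 (YPR035W), the glutamate dehydrogenases GDH1 (YOR375C), GDH2 (YDL215C) and GDH3 (YAL062W), and the glutamate synthase GLT1 (YDL171C). They were chosen for these roles by ORF name from an array table of 6174 ORFs, and all 8 are in it. The choice did not use their measured values, although earlier results of these data were known when it was made.

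Yeast assimilates ammonium by joining it to 2-oxoglutarate, which gives glutamate, and by joining a further ammonium to glutamate, which gives glutamine. Glutamate synthase closes a second route to glutamate, from glutamine and 2-oxoglutarate, and it carries an iron-sulfur cluster. YFH1 encodes yeast frataxin, which helps to build such clusters in mitochondria, and among the 8 members GLT1 is the iron-sulfur enzyme. The permease genes and several others of nitrogen metabolism are held low when good nitrogen sources are at hand, a control known as nitrogen catabolite repression.

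The study measured what happens to transcripts when YFH1 is switched off. Strain tetYFH1 (BQS201, W303-1A with tetO7-YFH1::kanMX4) has YFH1 behind a tet promoter that the antibiotic turns off, and W303-1A (here W303) lacks that construct and serves as the control for the drug. Cells of both strains grew at 30 °C in YPG, a rich glycerol medium, and were harvested at an A600 of 0.5, either untreated or after 10 h with 2 µg/ml doxycycline. Each of the 6 two-colour arrays gives 1 log2 ratio per ORF, treated over untreated cells of the same strain, so no level can be read and no gene's abundance can be set against another's. The drug and the 10 h cannot be told apart within a strain, and in these bulk samples fewer cells of a kind and less RNA per cell cannot be told apart.

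The 4 tetYFH1 arrays form 2 dye-swap pairs, called A (A1 with A2) and B (B1 with B2), and the 2 arrays of W303 form 1 pair. Averaging within pairs leaves n = 2 in tetYFH1 and n = 1 in W303. Nothing in the labels says whether these were separate cultures, and the p-values therefore reflect a spread that may be technical. YFH1 itself had log2 ratios between −5.38 and −2.64 on the tetYFH1 arrays and of −0.079 and −0.049 in W303. Pair B stands apart in its numbers: 42.2% of the ORFs on B1 and 24.7% on B2 have an exactly whole log2 ratio, against at most 0.13% on any other array. On B1 the ratio was exactly 0 for 27.7% of all ORFs and for 4 of the 8 members (MEP1, MEP2, GLN1 and GDH3), and on B2 GDH1 read exactly 2. The labels do not say how these whole numbers arose.

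In tetYFH1, MEP3 had higher ratios and GDH2 lower ratios on every array, GDH1 was high in pair B alone, and the other 5 members had means within 0.31 of 0 in log2 ratio. None of these differences passed the test over all ORFs. With limma, 0 of the 8 members had an adjusted p under 0.05 in tetYFH1, where 0.405% of all ORFs passed. At an unadjusted p under 0.05 the members were 3 of 8 (MEP3 and GDH1 higher, GDH2 lower), where 9.46% of all ORFs passed. The median over the 8 members was 0.088, beside 0.11 over all ORFs, and 6 of the 8 lay above 0, as did 4065 of the 6174 ORFs.

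**Figure D1:**
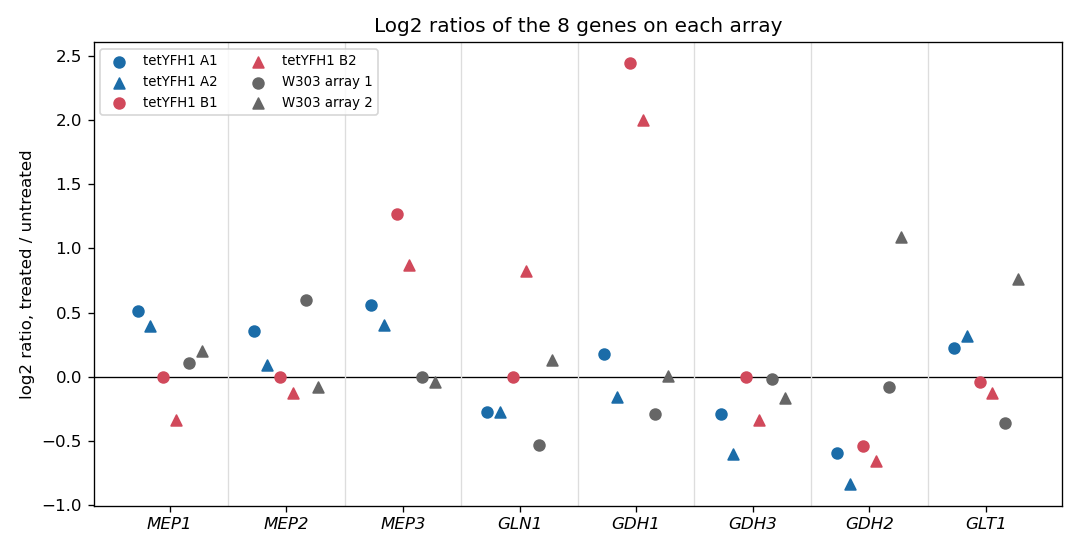
Log2 ratio of treated over untreated cells (vertical axis) for each of the 8 genes on each array, with circles for Exp 1 and triangles for Exp 2, which carry opposite dyes. GDH1 reads 2.44 and 2 in pair B and between −0.29 and 0.18 on the other 4 arrays, MEP3 lies above 0 on the 4 tetYFH1 arrays, and GDH2 lies below 0 on them.

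Of the permeases, MEP3 encodes a low-affinity ammonium transporter of high capacity. It read 0.56 and 0.41 in pair A (A1, then A2) and 1.27 and 0.87 in pair B (B1, then B2), while W303 gave −0.00072 and −0.037. All 4 tetYFH1 arrays lay above both W303 arrays, which held for 13.3% of all ORFs and for 1 of the 8 members. MEP3 was the 1 member above 0 on all 4 tetYFH1 arrays, a property of 11.5% of all ORFs. Its tetYFH1 mean was 0.78 ± 0.42 (SD, n = 2), or 1.71-fold higher, with a 95% interval of 0.22 to 1.34 and an adjusted p of 0.448. By size it was 128th of the 6174 ORFs from the top. The difference from W303 was 0.80 (95% interval −0.18 to 1.77, adjusted p 0.904).

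The other permease genes had tetYFH1 means closer to 0. MEP1, a permease of intermediate affinity, read 0.52 on A1 and 0.40 on A2, exactly 0 on B1 and −0.34 on B2, and 0.11 and 0.20 in W303. It lay above both W303 arrays in pair A and below both in pair B. Its pair A mean of 0.46 was close to the 0.48 of MEP3, and the 2 genes parted in pair B, with −0.17 for MEP1 and 1.07 for MEP3.

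MEP2, the permease of highest affinity, is also known to signal ammonium shortage in filamentous growth. It read 0.36, 0.094, 0 and −0.12 on A1, A2, B1 and B2. In W303 it read 0.60 on array 1 and −0.076 on array 2, a span that held all tetYFH1 values except that of B2. The tetYFH1 means were 0.14 ± 0.44 for MEP1 and 0.082 ± 0.20 for MEP2 (SD, n = 2). With intervals of −0.42 to 0.71 and −0.44 to 0.60, the data bound a rise at 1.64-fold for MEP1 and 1.52-fold for MEP2, and do not show that either gene was steady.

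GDH1 encodes the main NADP-linked glutamate dehydrogenase, which makes glutamate from ammonium and 2-oxoglutarate. It read 2.44 on B1 and 2 on B2, or 5.43-fold and 4-fold higher, but 0.18 on A1 and −0.15 on A2. In W303 it read −0.29 and 0.0072, so that pair A overlapped the control arrays and pair B lay far above them. The pair B mean of 2.22 was 19th of all ORFs from the top of that pair, whereas the pair A mean of 0.013 was 3339th. The tetYFH1 mean was 1.12 ± 1.56 (SD, n = 2), 2.17-fold higher, with a 95% interval of 0.060 to 2.17 and an adjusted p of 0.503. GDH1 was the 1 member whose mean was at least 2-fold higher, which held for 0.632% of all ORFs.

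The GDH1 value thus rests on pair B. Without pair A, with the remaining arrays entered singly as replicates, its mean was 2.22 and passed (adjusted p 0.0106), as did 1.72% of all ORFs. Without pair B, its mean was 0.013 with an adjusted p of 0.992. Its difference from W303 over all arrays was 1.26 (95% interval −0.57 to 3.09, adjusted p 0.956), and without pair A it was 2.36 (adjusted p 0.0359, where 1.62% of all ORFs passed). A fit without pair A or pair B has 1 dye-swap pair per strain. The p-values of such a fit reflect the spread within a pair, not between replicates.

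**Figure D2:**
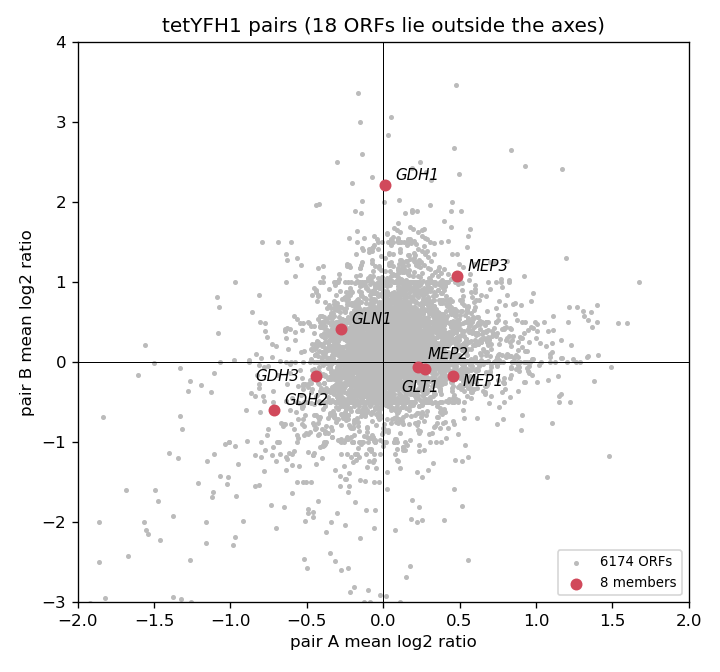
Mean log2 ratio in pair A (horizontal axis) and in pair B (vertical axis) of tetYFH1 for all 6174 ORFs in grey and the 8 members in red; 18 ORFs lie outside the axes. GDH1 stands at 0.013 in pair A and 2.22 in pair B, MEP3 at 0.48 and 1.07, and GDH2 at −0.72 and −0.60.

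GDH3 encodes the second NADP-linked glutamate dehydrogenase, a close relative of GDH1 that is known to be used on non-fermentable carbon such as ethanol. It read −0.29 on A1, −0.60 on A2, exactly 0 on B1 and −0.34 on B2, against −0.019 and −0.17 in W303. It was below both W303 arrays on 3 of the 4 tetYFH1 arrays and above them on B1. Its mean was −0.31 ± 0.19 (SD, n = 2), 1.24-fold lower, with an adjusted p of 0.684. GDH1 and GDH3 therefore had unequal ratios in pair B, although close copies can share signal on an array and the labels do not name the probe type.

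GDH2 encodes the NAD-linked glutamate dehydrogenase, which works in the other direction and releases ammonium from glutamate. It had the most even response of the 8 genes, with −0.59 and −0.84 in pair A (A1, then A2) and −0.54 and −0.65 in pair B (B1, then B2). These 4 values lay below both W303 arrays, which read −0.077 and 1.09, as was true of 9.31% of all ORFs and of 1 of the 8 members. This separation rests on the direction of the W303 ratios: turned, they read 0.077 and −1.09, a span that holds all 4 tetYFH1 values of GDH2. GDH2 was the 1 member below 0 on all 4 tetYFH1 arrays, as were 6.75% of all ORFs. The mean was −0.66 ± 0.085 (SD, n = 2) and thus 1.57-fold lower, its 95% interval was −1.16 to −0.15 and its adjusted p 0.497. It was 196th from the bottom of all ORFs in that mean, 111th in pair A and 430th in pair B.

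Between the strains GDH2 had a difference of −1.16 (95% interval −2.04 to −0.28, adjusted p 0.784). It was the 1 member of 8 with an unadjusted p under 0.05 in that comparison, where 6.33% of all ORFs passed. The difference owed much to W303 array 2: without it, the difference was −0.58, and without W303 array 1 it was −1.74. With the W303 ratios turned it was −0.15 (adjusted p 0.993). Without pair B, with the arrays left entered singly, the difference was −1.22 and passed (adjusted p 0.0390), as did 2.27% of all ORFs. That fit has 1 dye-swap pair per strain, so its p-value reflects the spread within a pair, not between replicates.

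GLN1, the glutamine synthetase, read −0.27 on both A1 and A2, exactly 0 on B1 and 0.82 on B2. In W303 it read −0.53 and 0.13, a span that held A1, A2 and B1. The 2 arrays of pair B differed by 0.82, and array B2 set the sign of the tetYFH1 mean of 0.069 ± 0.49 (SD, n = 2), which was −0.14 without B2. Its 95% interval ran from −0.51 to 0.65.

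GLT1, the iron-sulfur member, had ratios near 0 in tetYFH1. It read 0.22 on A1 and 0.32 on A2, then −0.042 on B1 with −0.12 on B2, and all 4 values lay between the W303 arrays at −0.36 and 0.76. Its mean was 0.095 ± 0.25 (SD, n = 2) with an adjusted p of 0.913, and 52.0% of all ORFs had a mean at least as high. The 95% interval of −0.43 to 0.62 leaves room for a fall of up to 1.35-fold or a rise of up to 1.54-fold. The difference from W303 was −0.11 (95% interval −1.02 to 0.80).

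**Figure D3:**
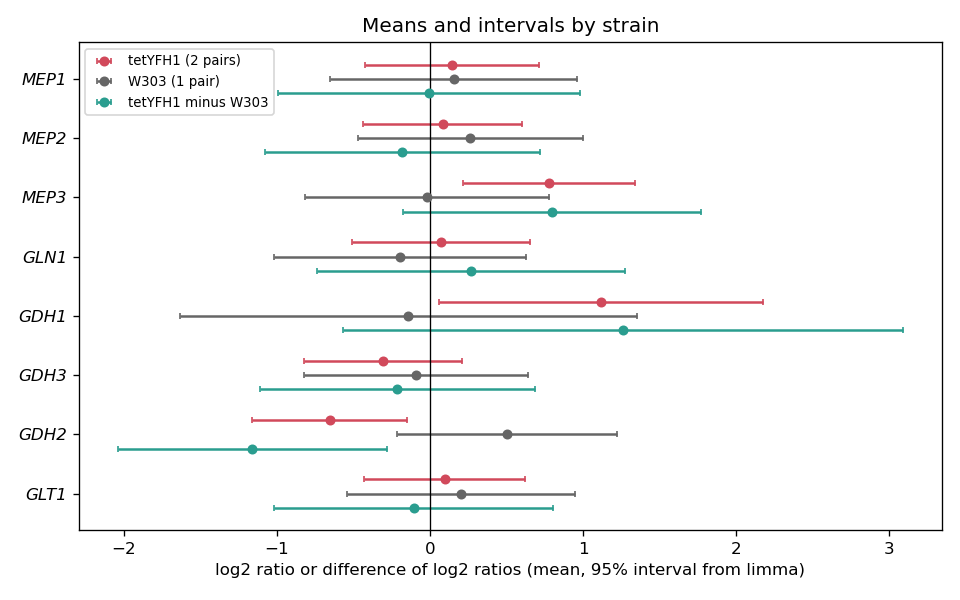
Mean log2 ratio with its 95% interval from limma for tetYFH1 (2 pairs) and W303 (1 pair), and the difference between them, for each member. The tetYFH1 intervals of MEP3 (0.22 to 1.34), GDH1 (0.060 to 2.17) and GDH2 (−1.16 to −0.15) leave out 0, before any adjustment over the 6174 ORFs.

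In W303 the members lay between −0.20 (GLN1) and 0.50 (GDH2) in mean log2 ratio. With limma, 0 of the 8 had an adjusted p under 0.05 in W303, where 0% of all ORFs passed, and 0 of 8 had an unadjusted p under 0.05, where 2.62% did. For the difference between strains 0 of 8 members passed, and 0% of all ORFs. The single W303 pair was assumed to vary like the tetYFH1 pairs, and its direction rests on the labels. With the W303 ratios turned, all 4 tetYFH1 arrays lay above both control arrays for 1 member (MEP3, where 14% of all ORFs did) and below both for 1 (GDH3, where 6.75% did).

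The 2 control arrays differed from each other for several members. GDH2 differed by 1.16 between them and GLT1 by 1.12, with the higher value on array 2 for both, and gaps of these sizes or more were found for 2.14% and 2.88% of all ORFs. GLN1 (0.66) and MEP2 (0.68) came next, the first higher on array 2 and the second on array 1. Array 2 carried the untreated RNA in the other dye, and over all ORFs the median gap was 0.38 in W303, 0.20 in pair A and 0.49 in pair B. The Pearson correlation between the 2 arrays across all ORFs was lowest in W303, at 0.24, beside 0.60 in pair A and 0.40 in pair B. In pair A the largest gap of a member was 0.34 (GDH1), and in pair B GLN1 (0.82) and GDH1 (0.44) had the largest. The W303 means of GDH2 and GLT1, 0.50 and 0.20, were −0.077 and −0.36 without array 2.

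**Figure D4:**
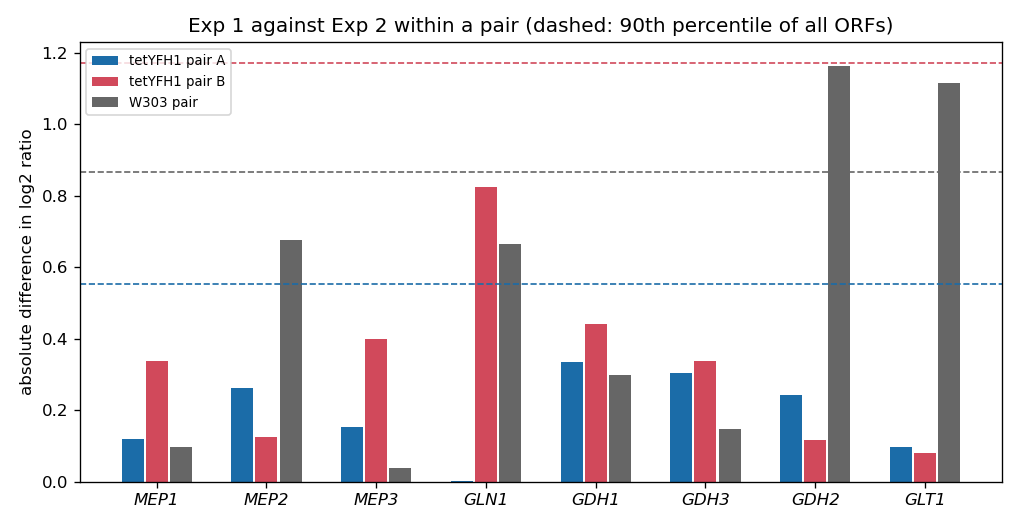
Absolute difference in log2 ratio between the 2 arrays of a dye-swap pair for each member (bars), with the 90th percentile over all ORFs in that pair as a dashed line of the same colour. GDH2 (1.16) and GLT1 (1.12) in W303 pass the line of their pair at 0.87, and GLN1 in pair B (0.82) does not pass its line at 1.17.

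Lists of related genes were set beside the members, each described by its counts. The 27 other genes under nitrogen catabolite repression, permeases and enzymes that use poor nitrogen sources, had a median of 0.095 in tetYFH1 and 0.18 in W303. In tetYFH1 0 passed, while 0 higher and 4 lower had an unadjusted p under 0.05, beside 5.83% higher and 3.63% lower over all ORFs. The largest entries were permeases for other substrates. DIP5, which takes up glutamate and aspartate, read −1.27, −1.37, −3 and −2.92 in tetYFH1 and 0.49 and 0.24 in W303 (adjusted p 0.0850 in tetYFH1). The proline permease PUT4 read −0.85, −1.11, −1.83 and −2.74 in tetYFH1, and −0.91 and −1.52 in W303, so it was low in both strains. The vacuolar carboxypeptidase CPS1 likewise had means of −1.19 and −0.85.

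GAP1, the general amino acid permease, had the largest W303 value of that list, with 1.72 and 2.03 on the control arrays and between −0.64 and 0 in tetYFH1. The ammonium permeases had W303 means nearer 0, and these were 0.15 (MEP1), 0.26 (MEP2) and −0.019 (MEP3). The 22 regulators of nitrogen genes had medians of 0.0055 and 0.035, and 0 had an unadjusted p under 0.05 in either strain. The largest were the GATA factor GZF3 (0.45 in tetYFH1), the amino acid control activator GCN4 (0.44), the respiratory activator HAP4 (0.39) and, in W303, HAP2 (0.52). The kinase NPR1 and its target PAR32, which set the activity of the Mep proteins, were looked up for that role after the values had been seen, and had tetYFH1 means of 0.14 and −0.31.

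The 15 genes that supply or use 2-oxoglutarate had a median of 0.21 in tetYFH1 and −0.097 in W303, with 4 higher and 2 lower at an unadjusted p under 0.05 in tetYFH1 (5.83% and 3.63% of all ORFs) and 0 past the adjusted threshold. IDH2, a subunit of the mitochondrial isocitrate dehydrogenase, read 0.58, 0.63, 0.98 and 0.95 in tetYFH1 and −0.70 and −0.21 in W303 (adjusted p 0.405 in tetYFH1). CIT2, the peroxisomal citrate synthase, had −0.11, −0.35, −1.76 and −1.49 in tetYFH1 and 1.57 and 2.00 in W303. Its difference of −2.71 between strains did not pass.

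Of the 29 other enzymes that form, break or use glutamate or glutamine, 0 passed in tetYFH1, with 0 higher and 4 lower at an unadjusted p under 0.05 (5.83% and 3.63% of all ORFs). The glutamate decarboxylase GAD1 (−1.23), the cytosolic branched-chain aminotransferase BAT2 (−0.97) and the mitochondrial aspartate aminotransferase AAT1 (−0.94) had the smallest p values, with adjusted p between 0.292 and 0.303. Each was below 0 on all 4 tetYFH1 arrays, as were 7 of the 29 and 6.75% of all ORFs. They were picked by their p values on these same arrays, so this adds no separate evidence. The proline oxidase PUT1, which starts the path from proline to glutamate, had a mean of −0.70 in tetYFH1 and 1.10 in W303.

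The 25 iron-sulfur proteins other than GLT1 had a median of 0.16 in tetYFH1 and −0.11 in W303, with 2 higher at an unadjusted p under 0.05 (5.83% of all ORFs), among them the homoaconitase LYS4 at 0.68, and 0 past the adjusted threshold. The value of GLT1 was 0.095. RLI1, a factor of ribosome recycling, had 0.55, and the sulfite reductase subunit MET5 had the largest W303 value, −0.55.

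**Figure D5:**
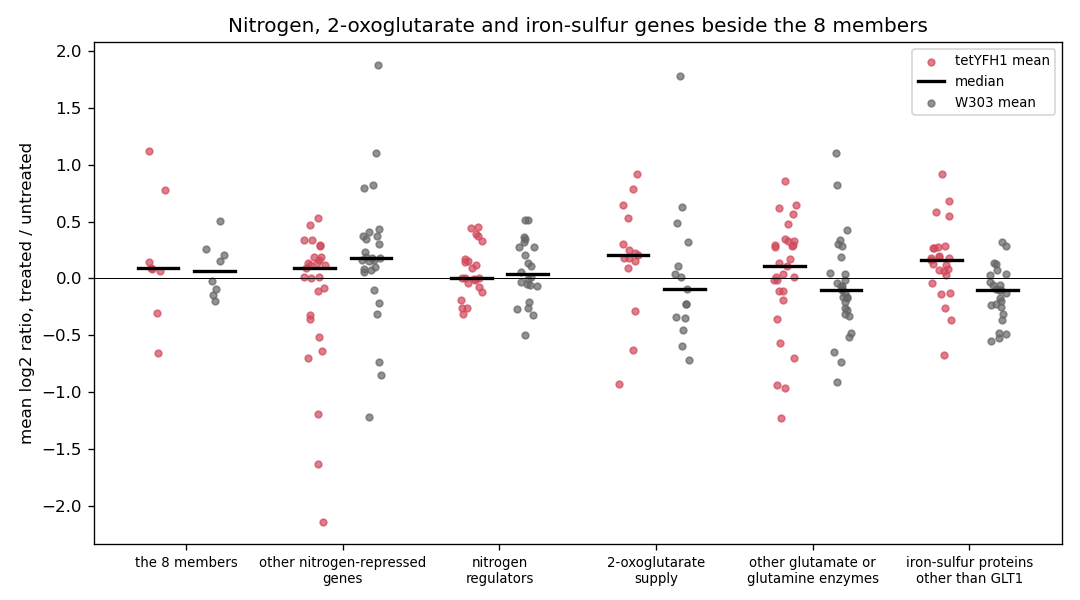
Mean log2 ratios in tetYFH1 (red) and W303 (grey) of the 8 members and of the genes of each list, 1 point per gene, with the median as a black bar. The medians lie between −0.11 and 0.21, and the widest lists reach from −2.14 (DIP5) to 0.53 in tetYFH1 and up to 1.88 (GAP1) in W303.

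By distance over the 6 arrays, the ORFs with ratios most like GDH1 were RPL33B (0.82), a ribosomal protein, URA1 (0.84), of pyrimidine synthesis, and CYS3 (0.86), of cysteine synthesis. Like GDH1 they read 1.48 or higher on both arrays of pair B, and whole numbers there are shared by RPL33B and CYS3. The nearest to MEP3 were ERG4 (0.36), of ergosterol synthesis, the DNA glycosylase MAG1 (0.39) and TOM7 (0.43), of the mitochondrial import pore. The nearest to GDH2 were PEP12 (0.64), a membrane fusion protein of the endosome, the ubiquitin protease UBP15 (0.72) and FMP46 (0.73). All 3 read between 0.73 and 0.90 on W303 array 2, where GDH2 read 1.09. The distance is the Euclidean distance between log2 ratios, and these are descriptions of 6 arrays.

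Markers of cell types and cell states also had ratios away from 0, and their part in the members' values was not tested. The 12 genes of starved or quiescent cells all lay below 0 in tetYFH1 (median −1.32, range −4.02 to −0.22, 2 past the threshold), while 5 lay below 0 in W303 (median 0.14). GRE1 and SIP18, the lowest of that list in tetYFH1 at −4.02 and −2.68, were also low in W303 at −3.22 and −1.98. Over all 6174 ORFs, 2109 lay below 0 in tetYFH1 (median 0.11, 0.405% past the threshold) and 2646 in W303 (median 0.049). The 10 genes of meiosis and sporulation had medians of 0.17 and 0.10, with IME1 at −1.19 in tetYFH1. The 6 genes of a cells and the 4 of alpha cells lay above 0 in tetYFH1, with medians of 0.54 and 0.49, and in W303 the medians were 0.20 and 0.16. Of all 6174 ORFs, 4065 lay above 0 in tetYFH1. No level can be read from log ratios, so some of these marker values may come from weak signals.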

How the data were processed

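The 6 arrays hold RNA of treated and untreated cells of 1 strain each, labelled indirectly with Cy5 or Cy3 from 8 µg of total RNA, with the dyes swapped between Exp 1 and Exp 2, per the labels' protocols. The authors deposited a table of log2 ratios with 1 value for each of 6174 ORFs on each array. The base is read from the values of pair B, since on B1 and B2 the ratio itself has 3 decimals for 100% of ORFs. That share was between 48.0% and 50.2% on the other arrays, whose base was taken to be the same. The sources used here do not give the scanner, background correction, normalization, filters or probe type. Array medians lay between 0.00 and 0.21, and the values were used as deposited. ORFs were named through the R64 RefSeq gene table, where 5675 matched, the 8 members among them; no coordinate was used, and sequences of promoters and proteins were not used here.

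Pairs were averaged and fitted across all ORFs with limma 3.58.1 in R 4.3.3 (1 coefficient per strain, empirical Bayes, 1 residual and 6.64 prior degrees of freedom) and a two-sided test, calling an ORF at a Benjamini-Hochberg adjusted p under 0.05 over the whole table. On simulated data with known changes, unchanged ORFs made up more of the fit's calls in most runs than the threshold allows. Whether the fit can find changes as small as those of the members was not tested. The number of arrays limits the precision, and no depth exists for log ratios. The members and the 9 gene lists were chosen with earlier results of these data known. Named genes are YFH1, the members, in each list the 3 with the smallest tetYFH1 p and the largest W303 mean, and the 3 nearest ORFs to each of the 3 members with the largest root mean square ratio; NPR1 and PAR32 fall outside this rule. The 17 alternatives cover the replicate unit, the Exp number, centring, scaling, moderation, threshold, whole numbers, the direction of W303 and omission of each array or pair.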

Additional observations from a re-analysis of the deposited data

How the results depend on the processing

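Over 17 alternatives, 0 members passed in W303 in any, 1 passed in tetYFH1 in 1 (GDH1, 2.22, without pair A), and 1 passed in the difference in 2 (GDH1, 2.36, without pair A, and GDH2, −1.22, without pair B). Without a pair the arrays left were entered singly, so 2 choices change at once. The arrays left are then 1 dye-swap pair per strain, so what passed there was tested against the spread within a pair. With each array as a replicate and the Exp number as a replicate block, 0 members passed in any comparison. The Exp number marks the dye orientation. The Exp 1 minus Exp 2 gaps of the pairs had correlations across ORFs of 0.11 (A and B), −0.086 (A and W303) and −0.16 (B and W303). These correlations cannot show whether arrays with the same Exp number share anything beyond the dye, such as a culture or a day. The count of ORFs called in tetYFH1 was 25 as reported, 86 with arrays as replicates, 59 with the replicate block, 99 with a random block, 3 of 2951 without ORFs with whole numbers (which leaves 3 members), 39 at an adjusted p under 0.1, 106 and 300 without pair A and pair B, 15 without A1, and 0 without A2, B1 or B2 and after centring or scaling. In the difference it was 0 as reported, 8, 4 and 10 in the 3 fits on single arrays, 3 with W303 turned, and 100 and 140 without pair A and pair B; in W303 it was 0 as reported and 281 without pair B, and at most 3 otherwise.

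MEP3, GDH1, GDH2 and GDH3 kept their tetYFH1 direction in every alternative that gave a value, from 0.48 to 1.07, from 0.013 to 2.22, from −0.77 to −0.59 and from −0.44 to −0.17. Alternatives that change only the replicate unit, the Exp number, moderation, the threshold or W303 leave the tetYFH1 means unchanged by construction. The direction could not change in those. For GDH1 the 0.013 was the mean without pair B, where A2 read −0.15. The means near 0 changed sign. In tetYFH1, GLN1 was −0.082 after scaling and −0.27 without pair B, and lay between −0.14 and 0.27 when single arrays were left out. Without pair A, MEP1 was −0.17, MEP2 −0.062 and GLT1 −0.083. In W303, turning the ratios gave −0.15 for MEP1, −0.26 for MEP2, 0.019 for MEP3, 0.20 for GLN1, 0.14 for GDH1, 0.092 for GDH3, −0.50 for GDH2 and −0.20 for GLT1 by construction. With 1 array left out the W303 values ran from −0.076 to 0.60 (MEP2), −0.53 to 0.13 (GLN1), −0.29 to 0.0072 (GDH1), −0.077 to 1.09 (GDH2) and −0.36 to 0.76 (GLT1). For the difference, MEP1 was 0.078 after scaling, 0.30 with W303 turned and 0.30 without pair B; MEP2 was 0.34, GLN1 −0.13 and GLT1 0.30 with W303 turned, where GDH2 kept its sign at −0.15; and GLN1 was −0.077 and GLT1 0.070 without pair B. With 1 array left out the differences ran over −0.094 to 0.074 (MEP1), −0.52 to 0.16 (MEP2), −0.066 to 0.60 (GLN1) and −0.67 to 0.45 (GLT1). The cause of these changes was not tested.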
